A study of Mus musculus with 7 samples.

Results

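The genes described here are Myc and its 2 paralogs, Mycn and Mycl, together with 29 genes of ribosome biogenesis and growth that are known Myc targets. The 32 genes were taken by symbol from the 43346 Ensembl genes of the count table of 7 mouse colon tumors, and all 32 were found and had enough counts to be tested. The choice used gene names and no measured value, but it was made with earlier results of these tumors known. The study itself examined a MYC target gene set in the same tumors, so the direction of these genes is not independent evidence of it.

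Whole tumors were dissected from C57BL6/J mice (WT, CD45.1) that had been lethally irradiated and given bone marrow (BM) from a donor. The donors carried Mx1-Cre, a recombinase under an interferon-inducible promoter, and all received poly(I:C), which induces it. In Dnmt3a+/Δ BM (4 tumors), 1 allele of the DNA methyltransferase gene Dnmt3a had been excised, and in Dnmt3a+/+ BM (3 tumors) both alleles were intact. All recipients were WT for Dnmt3a, so the colon epithelium carried no engineered Dnmt3a allele in either group and the genotypes differed in the grafted BM. Colitis-associated cancer was induced in every mouse by 1 injection of the carcinogen azoxymethane (AOM, 10 mg/kg) and then 3 rounds of dextran sulfate sodium (DSS, 3%), which injures the colon lining. The labels give the recipients as 8 weeks old, and the methods give a younger age. The tumors came from 2 transplantation experiments: replicates 1 and 2 of each group belong to BMT18, while the third control and Dnmt3a+/Δ replicates 3 and 4 belong to BMT8.

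Total counts ranged from 38472738 to 64314999 per tumor, and levels below are CPM (counts per 1000000 counts) on library sizes scaled by TMM. Dnmt3a itself was at 24.3, 23.1 and 20.2 CPM with Dnmt3a+/+ BM and 27.7, 43.0, 28.3 and 22 CPM with Dnmt3a+/Δ BM, which is a level of the whole tumor and not of the graft. The epithelial gene Epcam was at 1540 to 3240 CPM in all 7 tumors. Dnmt3a+/Δ replicate 2 stood apart with a summed CPM of 1020 for 7 fibroblast genes, against 152 to 358 in the other tumors, and Dnmt3a+/+ replicate 3 with a summed CPM of 22.6 for 6 smooth muscle genes, against 243 to 1170. In whole tumors, fewer cells of a type and less RNA per cell cannot be told apart, and p-values measure the spread between these tumors.

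Myc is a transcription factor that pairs with Max and binds E-box sequences in promoters. Among its best known targets are the genes that make ribosomes: RNA polymerase I, which transcribes the ribosomal RNA (rRNA) precursor in the nucleolus, the small nucleolar ribonucleoproteins (snoRNPs) that modify it, and the assembly factors that cut and fold it into the 40S and 60S subunits. In the colon, Wnt signaling drives Myc in the crypt base and in tumors. The libraries were made from polyadenylated RNA, so rRNA itself was not the quantity measured.

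The canonical E-box of Myc and Max, CACGTG, was searched in RefSeq promoters on GRCm38.p6, from 250 bases before to 50 bases after each start, and since it is a palindrome both strands give the same matches. Of the 32 genes, 26 had a promoter in the table, and Bop1, Fbl, Myc, Npm1, Rrp12 and Srm had none. CACGTG was present in 6 of the 26 (23.1%), against 8.09% of 27025 genes with a promoter and 11.1% of the 11692 that were also tested for expression. Before the start alone it was present in 1 of the 26 (3.85%), Nop2, against 6.86% of all genes, and the other 5 promoters were chosen for display after this was seen. The weaker variants CACGCG or CGCGTG were present in 7 of the 26 (26.9%), against 10.5% of all genes and 18.6% of those tested. A match of these letters is a description of the sequence and no evidence that Myc bound there. The 30 bases around each match are shown 5′ to 3′ on the strand of the gene because they let the E-box be set beside the levels of the gene that carries it, with the CACGTG in capitals. The first base of the motif lay 60 bases before the start in Nop2 (chr6:125131811-125131840, + strand) and 35 bases after it in Grwd1 (chr7:45830740-45830769, - strand). It lay 38 bases after the start in Utp20 (chr10:88826765-88826794, - strand) and 3 bases after it in Pes1 (chr11:3963965-3963994, + strand). In Mybbp1a (chr11:72441347-72441376, + strand) it lay 41 bases after the start, and in Wdr43 (chr17:71616220-71616249, + strand) 18 bases after it.
Nop2: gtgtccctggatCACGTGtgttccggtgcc
Grwd1: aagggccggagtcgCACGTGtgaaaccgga
Utp20: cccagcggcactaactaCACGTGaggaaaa
Pes1: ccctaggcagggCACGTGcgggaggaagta
Mybbp1a: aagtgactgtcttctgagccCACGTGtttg
Wdr43: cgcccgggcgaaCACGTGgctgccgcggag

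No gene of the list passed the threshold between groups. Most lay slightly higher with Dnmt3a+/Δ BM: the log2 fold change was above 0 for 29 of the 32 genes, against 50.2% of the 15810 genes tested, and its median was 0.18, against 0.003 over all genes tested. The 32 values come from the same 7 tumors and are not independent of each other. The values ranged from -0.33 for Npm3 to 0.54 for Polr1a, with standard errors (SE) of 0.13 to 0.59, and no estimate reached the threshold of 1. A call needed an adjusted p under 0.05 in the quasi-likelihood test of edgeR (Benjamini-Hochberg) and an absolute log2 fold change over 1. It was met by 0 of the 32 genes and by 0 of all 15810 (0%); the lowest adjusted p was 0.384 among the 32, for Myc, and 0.361 among all genes. At an unadjusted p under 0.05, 2 of the 32 genes were higher (Myc and Mybbp1a) and 0 lower, against 5.83% of all genes higher and 5.2% lower (11% in all). DESeq2 called 300 of 16056 genes (1.87%), none of them in the list, and its lowest adjusted p in the list was 0.185. The groups did not overlap for 2 genes that were higher with Dnmt3a+/Δ BM, Myc and Mycl (6.12% of all genes), and for 1 that was lower, Tbrg4 (6.32% of all genes). These counts are near what the shares over all genes give for a list of this size.

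The median of the list had opposite signs in the 2 experiments, and its size, though not its sign, depended on single tumors. Within BMT18, with 2 tumors against 2, the median log2 fold change of the 32 genes was 0.33 and 28 were above 0. Within BMT8, with 2 Dnmt3a+/Δ tumors against 1 Dnmt3a+/+ tumor, the median was -0.09 and 13 were above 0. Over all genes tested the median was 0.01 in BMT18 and 0.009 in BMT8, with 51.0% and 50.8% above 0. Without Dnmt3a+/+ replicate 1 the median of the 32 genes was 0.03 and 17 were above 0. Without Dnmt3a+/+ replicate 3 it was 0.37 and 30 were above 0. The difference between the experiments, tested gene by gene as an interaction, was negative for 29 of the 32 genes, with a lowest unadjusted p of 0.0803 for Gar1 and an adjusted p of 1 for each gene (edgeR; 0 of all genes passed, and 4.62% had an unadjusted p under 0.05). This difference was also negative for 13 of 13 cell division genes and for 37 of 79 ribosomal protein genes, both described below. Scaling by library size alone moved the median of all genes to 0.21 and that of the list to 0.41, so the distance between them changed little.

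**Figure D1:**
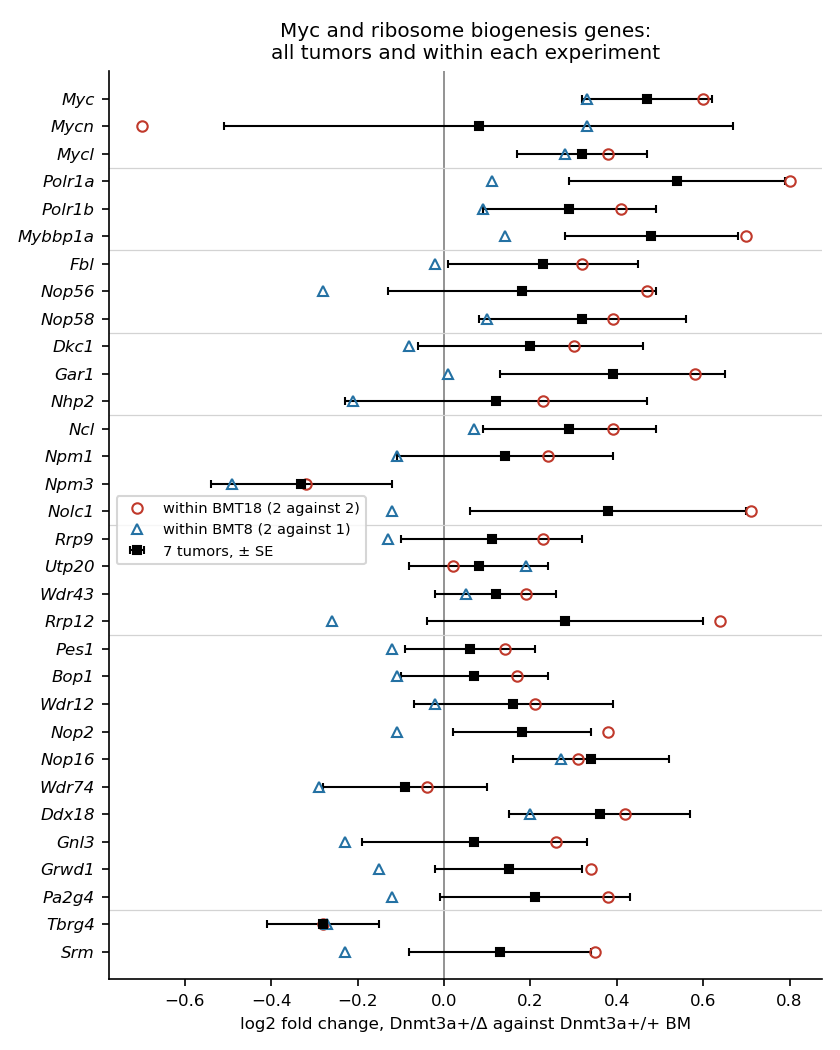
The log2 fold change of each of the 32 genes (x axis, Dnmt3a+/Δ against Dnmt3a+/+ BM) is drawn for all 7 tumors as a square with its SE, within BMT18 as a circle and within BMT8 as a triangle; grey lines separate the roles. The triangle lies to the left of the circle for most genes and below 0 for 19 of the 32. Myc, Mycl, the RNA polymerase I genes and several others, such as Nop16 and Ddx18, are above 0 in both experiments.

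Among the 3 Myc family genes, Myc was the one most expressed and the one whose groups were furthest apart. Myc (ENSMUSG00000022346, chromosome 15 of GRCm38, 61985391 to 61990374) was at 53.5, 53.1 and 53.9 CPM with Dnmt3a+/+ BM and at 71.5, 89.7, 64.8 and 70.7 CPM with Dnmt3a+/Δ BM. The 3 control tumors were nearly alike, every Dnmt3a+/Δ tumor was above them, and Dnmt3a+/Δ replicate 2 was the highest. The means were 53.5 ± 0.401 CPM (SD, n = 3) and 74.2 ± 10.8 CPM (SD, n = 4), a log2 fold change of 0.47 (SE 0.15, adjusted p = 0.384 from edgeR; 0.185 from DESeq2). Its log2 fold change was 0.60 within BMT18 and 0.33 within BMT8, and stayed between 0.39 and 0.53 when each tumor was left out in turn.

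Mycl, a paralog first known from lung cancer, was at 43.6, 37.1 and 38.4 CPM with Dnmt3a+/+ BM and at 45.6, 59.3, 49.8 and 43.7 CPM with Dnmt3a+/Δ BM. The groups did not overlap, but the gap between the lowest Dnmt3a+/Δ and the highest Dnmt3a+/+ tumor was 43.7 against 43.6 CPM. Its log2 fold change was 0.32 (SE 0.15, adjusted p = 0.486). Mycn, the paralog amplified in neuroblastoma, was at 2.87, 8.37 and 8.01 CPM with Dnmt3a+/+ BM and at 4.14, 2.81, 12.7 and 7.49 CPM with Dnmt3a+/Δ BM. Its tumors differed up to 4.51-fold within the Dnmt3a+/Δ group alone, and its log2 fold change of 0.08 (SE 0.59) turned to -0.30 with the experiment as a covariate and to -0.28 without Dnmt3a+/+ replicate 1. Per kilobase of merged exons, the mean level over the 7 tumors was 24.0 CPM for Myc, 11.2 for Mycl and 2.01 for Mycn, and Myc and Mycl exceeded Mycn in every tumor in CPM.

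**Figure D2:**
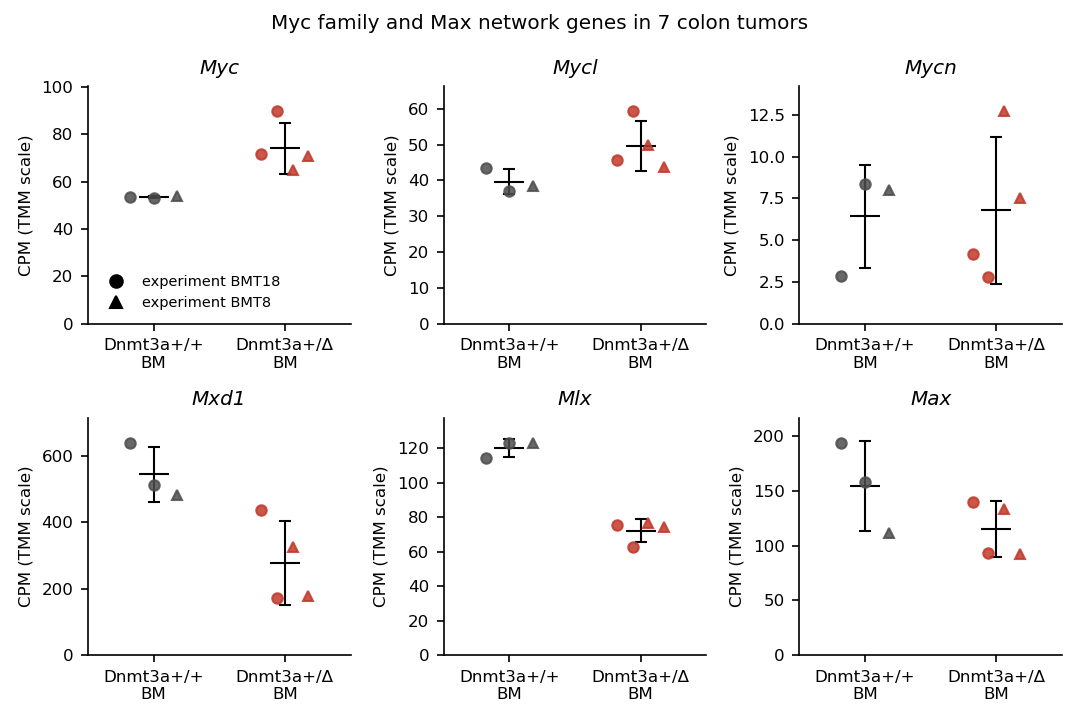
CPM on TMM-scaled library sizes (y axis) of 3 Myc family genes (top) and 3 genes of the Max network (bottom) in each tumor, with circles for BMT18, triangles for BMT8 and bars for the mean ± SD of 3 or 4 tumors. The 3 Dnmt3a+/+ tumors lie at 53.1 to 53.9 for Myc, below all 4 Dnmt3a+/Δ tumors, and at 114 to 123 for Mlx, above all 4.

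Polr1a and Mybbp1a gave the largest log2 fold changes of the list. Polr1a, which encodes the largest subunit of RNA polymerase I, was at 16.5, 20.2 and 31.9 CPM with Dnmt3a+/+ BM and at 27.7, 36.5, 32 and 36.9 CPM with Dnmt3a+/Δ BM. The groups overlapped because Dnmt3a+/+ replicate 3 was above Dnmt3a+/Δ replicate 1, and the log2 fold change was 0.54 (SE 0.25, adjusted p = 0.476) with all tumors, 0.85 without that control and 0.35 without Dnmt3a+/+ replicate 1. Mybbp1a, a nucleolar Myb-binding protein whose E-box window is printed above, was at 83.4, 102 and 127 CPM with Dnmt3a+/+ BM and at 125, 176, 131 and 148 CPM with Dnmt3a+/Δ BM. Here too only Dnmt3a+/+ replicate 3 reached into the other group, and the log2 fold change was 0.48 (SE 0.20, unadjusted p = 0.0434, adjusted p = 0.439). Polr1b, the other large catalytic subunit, had a log2 fold change of 0.29 (SE 0.20). All 3 genes were higher with Dnmt3a+/Δ BM within each experiment, by 0.41 to 0.80 on the log2 scale in BMT18 and by 0.09 to 0.14 in BMT8, and none was called.

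The proteins of the snoRNPs, which guide methylation (box C/D) and pseudouridylation (box H/ACA) of rRNA, differed less between group means than between tumors of a group. Nop56, a box C/D core protein, was at 77.9, 96.2 and 173 CPM with Dnmt3a+/+ BM and at 106, 135, 106 and 178 CPM with Dnmt3a+/Δ BM. The highest tumor of each group came from BMT8. Its log2 fold change was 0.18 (SE 0.31), 0.47 within BMT18 and -0.28 within BMT8. Fbl, the methyltransferase of the complex, had a log2 fold change of 0.23 and Nop58, its other core protein, one of 0.32. Among the box H/ACA genes, Nhp2 was at 122, 128 and 256 CPM with Dnmt3a+/+ BM and at 142, 151, 159 and 282 CPM with Dnmt3a+/Δ BM. Again Dnmt3a+/+ replicate 3 and Dnmt3a+/Δ replicate 4, both of BMT8, stood above the other 5 tumors, and the log2 fold change was 0.12 (SE 0.35). Gar1, another protein of this complex, was at 29.5, 33.3 and 58.9 CPM against 46.3, 47.8, 53.1 and 65.3 CPM, with a log2 fold change of 0.39 (SE 0.26) that was 0.58 in BMT18 and 0.01 in BMT8, and 0.20 to 0.75 with each tumor left out in turn. Dkc1, the pseudouridine synthase mutated in dyskeratosis congenita, had a log2 fold change of 0.20. None of the 6 genes had an unadjusted p under 0.05.

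Nucleolar scaffold and chaperone genes did not share a direction, and among them Npm1 and Ncl had the highest counts of the list. Npm1, nucleophosmin, was at 583, 663 and 973 CPM with Dnmt3a+/+ BM and at 713, 756, 739 and 1060 CPM with Dnmt3a+/Δ BM, a log2 fold change of 0.14 (SE 0.25). Npm1 has processed pseudogene copies, and its value rests on how the counting divided shared reads. Ncl, nucleolin, which packs rDNA and binds pre-rRNA, was at 514, 612 and 786 CPM against 772, 700, 778 and 870 CPM, with a log2 fold change of 0.29 (SE 0.20). Nolc1, a scaffold that brings snoRNPs to the nucleolus, had its lowest tumor at 32 CPM in Dnmt3a+/+ replicate 1 and its highest at 87.8 CPM in Dnmt3a+/Δ replicate 4, and its log2 fold change was 0.38 (SE 0.32). That value was 0.71 in BMT18 and -0.12 in BMT8, 0.11 without Dnmt3a+/+ replicate 1 and 0.83 without Dnmt3a+/+ replicate 3. Npm3, a histone chaperone of the nucleophosmin family, went the other way, at 48.5, 51.3 and 70.8 CPM with Dnmt3a+/+ BM and at 41.6, 38.4, 41.6 and 59.5 CPM with Dnmt3a+/Δ BM. In each experiment its Dnmt3a+/Δ tumors were below the Dnmt3a+/+ tumors, with a log2 fold change of -0.32 in BMT18, -0.49 in BMT8 and -0.33 over all tumors (SE 0.21, adjusted p = 0.585).

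The 4 genes of small subunit processing had log2 fold changes of 0.08 to 0.28, with a median of 0.11. Rrp12, which serves the export and maturation of pre-ribosomes, had the widest range of the nucleolar genes in the control group, at 11.5, 18.4 and 30.9 CPM, against 23.2, 23.3, 22.4 and 29.1 CPM with Dnmt3a+/Δ BM. Its log2 fold change of 0.28 (SE 0.32) was 0.64 in BMT18 and -0.26 in BMT8. Utp20 and Wdr43, components of the small subunit processome with a CACGTG just after the start, were among the steadiest genes. Utp20 was at 30.3, 44.0 and 33.9 CPM against 36.7, 38.9, 39.2 and 38.1 CPM, with a log2 fold change of 0.08 (SE 0.16), and Wdr43 had one of 0.12 (SE 0.14). Rrp9, a protein of the U3 snoRNP that starts the cleavage of pre-rRNA, had a log2 fold change of 0.11.

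Of the 10 genes of large subunit assembly, 9 had a log2 fold change above 0, with a median of 0.15 and no unadjusted p under 0.05. The PeBoW complex, which processes the 60S precursor, gave small values for its 3 subunits: 0.06 for Pes1, 0.07 for Bop1 and 0.16 for Wdr12. Larger values came from Ddx18, a nucleolar RNA helicase, at 41.3, 55.0 and 60.9 CPM against 55.6, 73.2, 56.6 and 83.6 CPM, a log2 fold change of 0.36 (SE 0.21). Nop16 was at 45.8, 48.7 and 57.7 CPM against 48.7, 68.3, 64.3 and 75.1 CPM, a log2 fold change of 0.34 (SE 0.18), and it kept 0.31 in BMT18 and 0.27 in BMT8. Both genes had at least 1 control tumor at or above the lowest Dnmt3a+/Δ tumor. Pa2g4, which binds pre-ribosomes and the 60S subunit, had a log2 fold change of 0.21, Nop2, an rRNA methyltransferase, one of 0.18, and Grwd1, a WD-repeat protein of the nucleolus, one of 0.15. Gnl3, nucleostemin, had its lowest level, 26.5 CPM, in Dnmt3a+/Δ replicate 3 and its highest, 56.5 CPM, in Dnmt3a+/Δ replicate 4, so its log2 fold change of 0.07 (SE 0.26) spans a 2.13-fold range within 1 group. Wdr74, an assembly factor of the 60S subunit, had a log2 fold change of -0.09, and one of 0.13 when scaled by library size alone.

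Tbrg4 and Srm act outside the nucleolus. Tbrg4, a mitochondrial protein that binds mitochondrial RNA, was at 51.9, 64.1 and 57.3 CPM with Dnmt3a+/+ BM and at 50.1, 45.2, 45.5 and 49.4 CPM with Dnmt3a+/Δ BM. It was the only gene of the list with every Dnmt3a+/Δ tumor below every control, with a log2 fold change of -0.28 (SE 0.13, adjusted p = 0.470), -0.28 in BMT18 and -0.27 in BMT8. With scaling by library size alone its log2 fold change was -0.08 and its groups overlapped. Srm, spermidine synthase, had a log2 fold change of 0.13.

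The nucleolar genes mostly shared which tumors were low and high, within the groups as well as between them. Dnmt3a+/+ replicate 1 was the lowest tumor for 25 of the 27 nucleolar genes. The highest was Dnmt3a+/Δ replicate 4 for 16 genes, Dnmt3a+/Δ replicate 2 for 5, Dnmt3a+/+ replicate 3 for 5 and Dnmt3a+/+ replicate 2 for 1. Among the controls, replicate 3 was above both others for 25 of the 27. How much of this went with the tumor and how much with the group was not tested. Over the 32 genes, the mean of log2(CPM + 0.5) was 5.55, 5.83 and 6.18 with Dnmt3a+/+ BM and 5.88, 6.08, 5.97 and 6.28 with Dnmt3a+/Δ BM, in the order of the replicates. The control group therefore held both the lowest tumor and the one that ranked just below the highest. Myc itself did not share this pattern: among the 3 control tumors its highest level was 1.02-fold its lowest, and none of the 27 nucleolar genes had so narrow a range, which was 1.25-fold for Wdr43, 2.69-fold for Rrp12 and 1.53-fold at the median. Among the 4 Dnmt3a+/Δ tumors the corresponding ratio was 1.39 for Myc and 1.43 at the median of the nucleolar genes, and 10 of the 27 had a narrower range than Myc.

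**Figure D3:**
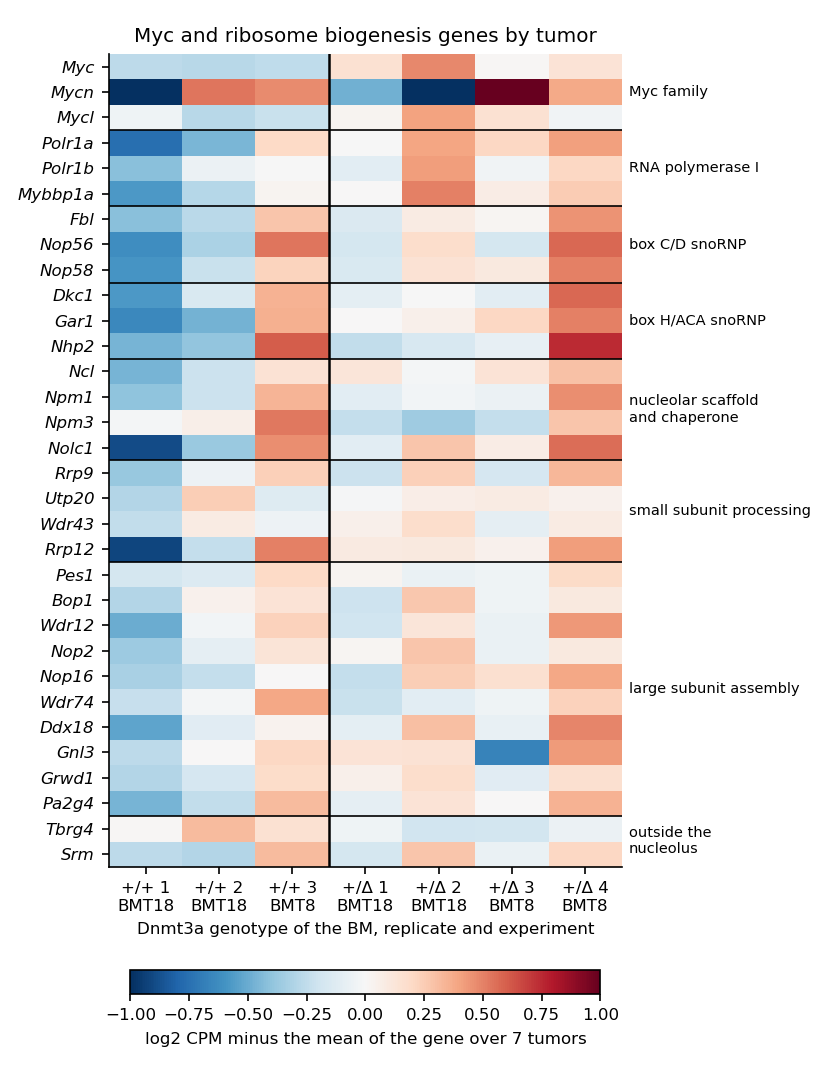
Each cell is the log2 CPM of a gene in 1 tumor minus the mean of that gene over the 7 tumors, grouped by role, with Dnmt3a+/+ tumors left and Dnmt3a+/Δ tumors right of the vertical line; colors stop at -1 and 1, which some tumors exceed for Mycn. The first column is blue for most nucleolar genes and the columns of Dnmt3a+/+ replicate 3 and Dnmt3a+/Δ replicate 4 are red, whereas Myc changes color at the line.

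Cell division genes and cell type markers moved between the tumors too, and their part in the values above was not tested. The 13 cell division genes, among them Mki67, all had a log2 fold change above 0, with a median of 0.19 (0.64 in BMT18 and -0.23 in BMT8), and 1 of them, Mcm2, had an unadjusted p under 0.05. Their mean of log2(CPM + 0.5) was 5.54, 6.0 and 6.45 in the control tumors and 6.24, 6.48, 6.05 and 6.47 in the Dnmt3a+/Δ tumors, so that Dnmt3a+/+ replicate 1 was again the lowest. For the 10 colon epithelium genes the median log2 fold change was -0.52, with a summed CPM of 16600 to 33600 in the control tumors and 10100 to 21500 in the Dnmt3a+/Δ tumors, and 1 of the 10, Cdx2, was above 0. The 7 genes of differentiated colonocytes had a median of -0.94, all below 0, with summed CPM of 998 to 1300 against 406 to 766. Their median was -1.54 within BMT18 and -0.36 within BMT8, where 3 of the 7 were above 0. The 6 endothelium genes had a median of 1.81, with summed CPM of 13 to 26.8 against 25.3 to 121. The 8 leukocyte genes had a median of 0.70, which was 0.03 without Dnmt3a+/Δ replicate 2, and summed CPM of 56.9 to 118 against 51.0 to 528. The 7 fibroblast genes had a median of 1.39, which was 0.20 without that tumor. The 6 smooth muscle genes had one of 0.08, which was -1.05 within BMT18 and 6.9 within BMT8. The only control of BMT8, Dnmt3a+/+ replicate 3, had the summed CPM of 22.6 for these genes. Without Dnmt3a+/Δ replicate 2, the median of the 32 Myc and ribosome biogenesis genes was 0.22.

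The ribosomal protein genes, whose products are assembled by the factors above, had the opposite direction. All 79 had a log2 fold change below 0, from -0.68 to -0.08 with a median of -0.28, which was -0.35 within each experiment. The median was -0.13 without Dnmt3a+/+ replicate 3 (13 genes above 0), -0.14 without Dnmt3a+/Δ replicate 2 (6 above 0) and -0.46 without Dnmt3a+/Δ replicate 4. Of the 79, 4 were lower at an unadjusted p under 0.05, near the 5.2% of all genes, and 3 had groups that did not overlap, against 6.32% of all genes. Rplp0, the stalk protein of the 60S subunit, was at 4540, 3660 and 3350 CPM with Dnmt3a+/+ BM and at 2880, 2040, 2490 and 2850 CPM with Dnmt3a+/Δ BM, a log2 fold change of -0.59 (SE 0.23, adjusted p = 0.422). Rpl9 had one of -0.51 and Rps7 one of -0.56, and these were the 3 genes in which every Dnmt3a+/Δ tumor was below every control. By library size alone the median of the 79 genes was -0.08 and 18 were above 0, with the median of all genes at 0.21. Tumor by tumor, the mean log2 level of the 32 genes minus that of the 79 ribosomal protein genes, a difference that no scaling of a library can move apart from the added 0.5, was -4.26, -3.74 and -3.92 with Dnmt3a+/+ BM and -3.61, -3.06, -3.52 and -3.69 with Dnmt3a+/Δ BM. The 4 Dnmt3a+/Δ tumors were all above the 3 controls on this difference, with a gap of -3.69 against -3.74 at its narrowest. The same difference taken against the 13 cell division genes did not separate the groups. It was 0.01, -0.17 and -0.27 with Dnmt3a+/+ BM and -0.35, -0.41, -0.09 and -0.19 with Dnmt3a+/Δ BM. No test was made of either difference.

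**Figure D4:**
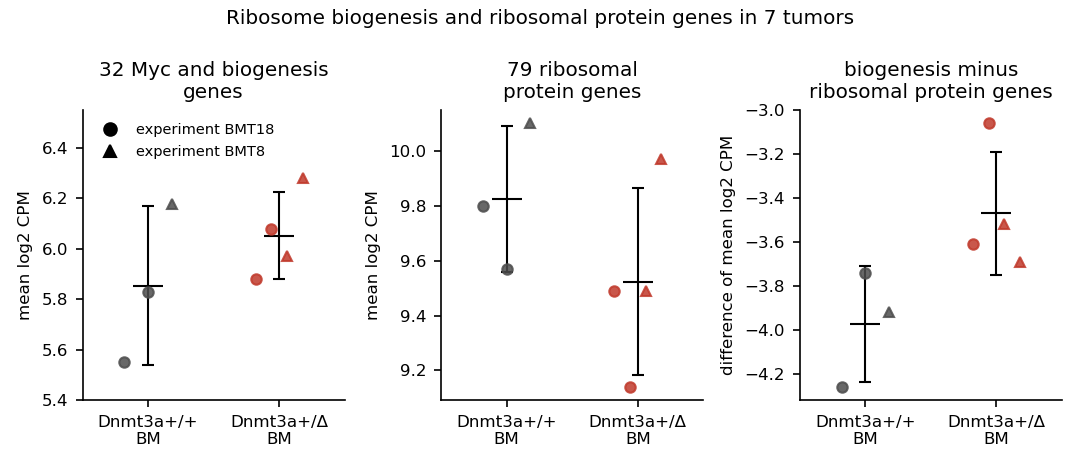
Mean of log2(CPM + 0.5) in each tumor over the 32 Myc and ribosome biogenesis genes, over 79 ribosomal protein genes, and the first minus the second (y axes, which do not start at 0); circles are BMT18, triangles BMT8 and bars the mean ± SD of 3 or 4 tumors. The groups overlap in the first and middle panels, and the Dnmt3a+/Δ tumors, at -3.69 to -3.06, lie above the controls, at -4.26 to -3.74, in the last.

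Other genes of ribosome biogenesis had medians nearer 0 than the 0.18 of the 32 genes. By role the medians were close, as the list had 0.11 for small subunit processing and 0.15 for large subunit assembly. Few had an unadjusted p under 0.05, against 5.83% of all genes higher and 5.2% lower. Of 45 other genes of small subunit processing, 30 were above 0, with a median log2 fold change of 0.12, and 1 was higher at an unadjusted p under 0.05. That gene was Nol6, a U3-associated protein, at 26.7, 27.5 and 28.1 CPM against 39.7, 32.9, 33.5 and 31.3 CPM, a log2 fold change of 0.33 (SE 0.14, adjusted p = 0.452). Of 40 other genes of large subunit assembly, 31 were above 0, again with a median of 0.12, and 1 was higher and 1 lower at an unadjusted p under 0.05. Mdn1, the giant ATPase that strips factors from the 60S precursor, was at 14.5, 13.7 and 15.6 CPM against 19.2, 25.4, 18.3 and 20 CPM, a log2 fold change of 0.50 (SE 0.18, adjusted p = 0.408). Eif6, which keeps the 60S subunit from joining the 40S, was at 438, 403 and 518 CPM against 367, 218, 302 and 301 CPM, a log2 fold change of -0.61 (SE 0.21, adjusted p = 0.404). For Nol6 and Mdn1 every Dnmt3a+/Δ tumor was above the controls, and for Eif6 below them. These were not the only such genes. The groups did not overlap for 5 of the 45 small subunit genes, all higher with Dnmt3a+/Δ BM. Among the 40 large subunit genes, 4 were higher and 3 lower without overlap. Over all genes the shares were 6.12% higher and 6.32% lower. The 9 other snoRNP genes had a median of 0.12, with 6 above 0 and no unadjusted p under 0.05.

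The other 14 genes of the RNA polymerase I machinery did not share the values of Polr1a and Polr1b. Their median log2 fold change was -0.02, 6 were above 0, and 2 were lower at an unadjusted p under 0.05. These were Polr1c and Polr1d, the subunits that RNA polymerase I shares with RNA polymerase III. Polr1c was at 101, 88.3 and 90.7 CPM against 75.8, 67.4, 73.7 and 80.3 CPM, a log2 fold change of -0.33 (SE 0.13, adjusted p = 0.422), and its groups did not overlap. Polr1d had a log2 fold change of -0.42 (SE 0.18). Rrn3, the initiation factor that brings the polymerase to rDNA, had one of 0.30, as did Taf1b, and Tcof1, the protein mutated in Treacher Collins syndrome, one of 0.33.

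Myc targets of metabolism and translation had a median like that of the nucleolar genes, 0.19, with 20 of 26 above 0 and 1 higher at an unadjusted p under 0.05. Slc7a5, which imports large neutral amino acids, was at 32.6, 30.4 and 24.9 CPM with Dnmt3a+/+ BM and at 58.3, 63.4, 36.4 and 34.6 CPM with Dnmt3a+/Δ BM. All 4 tumors were above the controls, the 2 of BMT18 by the most, and the log2 fold change was 0.72 (SE 0.26, adjusted p = 0.407). Ctps, which makes CTP, had a log2 fold change of 0.39 and Shmt2, of mitochondrial serine metabolism, one of 0.35. Ldha, lactate dehydrogenase, had one of -0.42, at 1620, 1550 and 1800 CPM against 1470, 1030, 1130 and 1330 CPM, and its groups did not overlap.

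**Figure D5:**
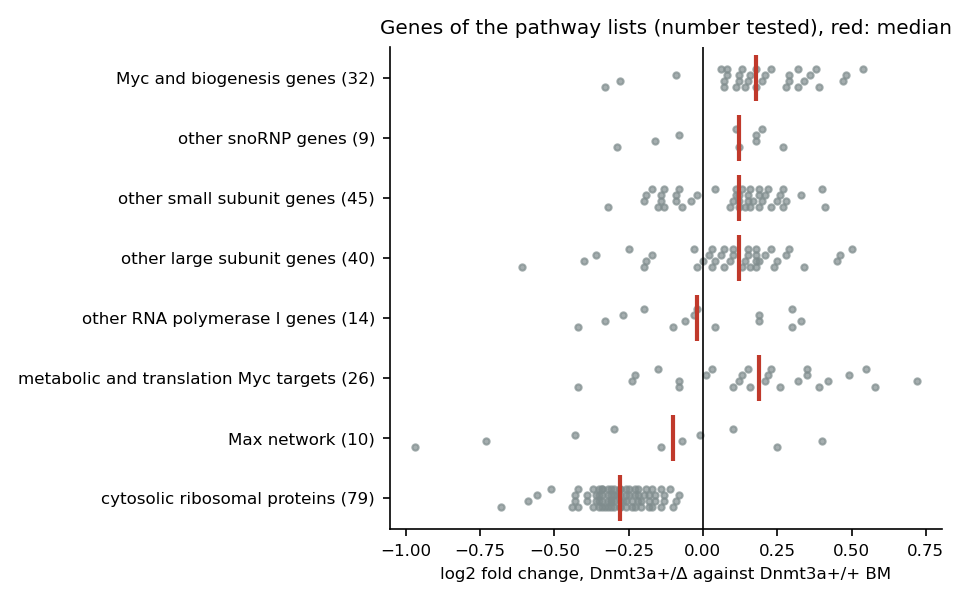
Each dot is the log2 fold change of 1 tested gene (x axis, Dnmt3a+/Δ against Dnmt3a+/+ BM, 7 tumors), the rows are gene lists with the number of genes tested, and the red bar is the median; the vertical offset of dots within a row has no meaning. The row of ribosomal proteins lies wholly below 0, from -0.68 to -0.08, and the medians of the ribosome biogenesis rows lie between -0.02 and 0.18.

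The partners and rivals of Myc in the Max network held the smallest unadjusted p of the genes described here. Max is the obligate partner of Myc, the Mxd proteins pair with Max and repress E-box genes, and Mlx pairs with some Mxd proteins or with the glucose sensors Mlxip and Mlxipl. Mlx was at 114, 123 and 123 CPM with Dnmt3a+/+ BM and at 75.5, 62.4, 76.4 and 74.5 CPM with Dnmt3a+/Δ BM. The groups were far apart next to their spread, at 120 ± 5.34 CPM (SD, n = 3) and 72.2 ± 6.56 CPM (SD, n = 4). Its log2 fold change was -0.73 (SE 0.13, unadjusted p = 0.00059), -0.78 in BMT18 and -0.71 in BMT8, and lay between -0.77 and -0.64 with each tumor left out in turn. The adjusted p was 0.361 from edgeR and 0.00315 from DESeq2, and by neither was Mlx called: its change is below the threshold of 1, and with edgeR its adjusted p missed the threshold too. Mxd1 was at 640, 514 and 484 CPM against 437, 172, 326 and 178 CPM. All 4 Dnmt3a+/Δ tumors were below the controls, and the log2 fold change was -0.97 (SE 0.35, unadjusted p = 0.0249, adjusted p = 0.407), -0.92 in BMT18 and -0.94 in BMT8.

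Mxd1 is known for its expression in differentiated epithelial cells, and the part of the colonocyte genes given above in the level of Mxd1 was not tested. Within BMT18 Mxd1 was at -0.92 and those 7 genes had a median of -1.54. Within BMT8 Mxd1 was at -0.94 and the 7 genes had a median of -0.36, with 3 above 0 and 4 below. The BMT8 values rest on the 1 Dnmt3a+/+ tumor of that experiment. The other 8 genes of the network had no unadjusted p under 0.05. Max was at 194, 158 and 112 CPM against 140, 93.0, 134 and 92.8 CPM, a log2 fold change of -0.43 (SE 0.25). Mga, a large E-box and T-box factor that pairs with Max, had a log2 fold change of 0.40, Mxd3 one of 0.25 and Mnt, the broadly expressed antagonist of Myc, one of 0.10. The values were -0.30 for Mlxip, -0.14 for Mxd4, -0.07 for Mxi1 and -0.01 for Mlxipl. In all, 3 of the 10 genes were above 0 and the median was -0.10, which was 0.09 when scaled by library size alone.

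For 9 of the 32 genes, exons overlap those of a tested gene on the opposite strand: Bop1 with Mroh1, Dkc1 with Mpp1, Gnl3 with Pbrm1, Mybbp1a with Spns2, Nhp2 with Rmnd5b, Nop56 with Idh3b, Npm3 with Gm15491, Rrp9 with Parp3 and Wdr12 with Carf. The library kit kept the strand, and whether the counting used it is not given in the sources used here.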

How the data were processed

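RNA-seq of polyadenylated RNA from 7 whole colon tumors was used. Per the labels and the methods of the study, the authors trimmed reads with Trimmomatic, aligned them with STAR to mm10 and estimated counts per gene with RSEM; the gene annotation is not given in the sources used here. The deposited values are those estimated counts, whole numbers without normalization. Symbols matched 42462 of 43346 identifiers, and positions are from GENCODE M21 on GRCm38.

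The comparison between groups used the quasi-likelihood test of edgeR (version 4.0.16, R 4.3.3) without covariates, on TMM library sizes and filterByExpr, with Benjamini-Hochberg adjustment over 15810 genes. The standard error is the log2 fold change divided by the square root of F. The methods of the study used DESeq2, which was run as an alternative (1.42.0). The within-experiment values came from a fit with a group effect in each experiment. Both tools were tested on simulated data with known changes.

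The genes, lists and tests were chosen with earlier results of these data known. Named were the 32 genes, the Max network, up to 3 genes in each direction with the lowest unadjusted p of each other pathway list, and up to 2 genes of each marker list. Pathway lists were other genes of RNA polymerase I, snoRNPs, small subunit processing and large subunit assembly, metabolic and translation Myc targets, and cytosolic ribosomal proteins. Marker lists were cell division, colon epithelium, differentiated colonocyte, fibroblast, smooth muscle, endothelium and leukocyte. Alternatives were DESeq2, other scalings, filters and thresholds, a covariate for the experiment, a block for the replicate number, each experiment alone and each tumor left out.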

Additional observations from a re-analysis of the deposited data

Results flagged for a closer look

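In groups of 4 tumors, 47 values were checked for a tumor far from the other 3, and 7 were found, where chance gives about 5%, or 2.35. In Dnmt3a+/Δ replicate 4, 5 genes stood above the other 3 Dnmt3a+/Δ tumors by this measure: Dkc1 at 87.8 CPM, Nhp2 at 282 CPM, Npm1 at 1060 CPM, Npm3 at 59.5 CPM and Rrp12 at 29.1 CPM. In Dnmt3a+/Δ replicate 2, the summed CPM of the fibroblast genes was 1020 and that of the leukocyte genes 528, far above the other 3 tumors of the group.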

How the results depend on the processing

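No alternative with a test called any of the 32 genes, and among all genes only DESeq2 made calls, 300. The count with a log2 fold change above 0 was 13 within BMT8, where the median was -0.09, and leaving out each tumor in turn gave 17 to 30 genes and medians of 0.03 to 0.37. Scaling by library size alone gave 9 higher genes at an unadjusted p under 0.05, against 10.7% of all genes, and BMT18 alone gave 4, against 3.58%. Leaving out each tumor gave 1 to 9 higher genes, the 9 without Dnmt3a+/+ replicate 3 (6.04% of all genes), and 0 to 1 lower. Across these fits, 2.72% to 7.71% of all genes were higher and 2.7% to 6.19% lower. With the experiment as a covariate 3 genes were higher and 1 lower, against 14.7% of all genes in either direction. Without overlap between groups, 10 genes were higher and 0 lower by library size alone, against 11.2% and 1.9% of all genes.

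Beside the values within BMT8, the signs of 13 genes depended on a scaling, a covariate or a left-out tumor, and the cause was not tested. Mycn was at -0.30 with the experiment as a covariate and at -0.69 in BMT18 alone, and Wdr74 at 0.13 by library size alone. Leaving out each tumor in turn gave -0.41 to 0.37 for Mycn, -0.04 to 0.59 for Nop56, -0.0024 to 0.46 for Dkc1, -0.16 to 0.54 for Nhp2, -0.01 to 0.38 for Npm1 and -0.04 to 0.27 for Rrp9. It gave -0.03 to 0.25 for Utp20, -0.01 to 0.71 for Rrp12, -0.01 to 0.19 for Pes1, -0.05 to 0.17 for Bop1, -0.02 to 0.33 for Wdr12, -0.22 to 0.09 for Wdr74 and -0.08 to 0.25 for Gnl3. Without Dnmt3a+/+ replicate 1 alone, 12 genes changed sign. Myc stayed above 0 under every alternative.

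The replicate numbers did not pair the tumors: the deviations of same-numbered tumors correlated at 0.57, 0.07 and -0.04. With the replicate number as a block, 1 gene was higher and 1 lower at an unadjusted p under 0.05 (edgeR), against 5.15% and 6.77% of all genes. In that fit Mycn was at -0.10, Nhp2 at -0.08 and Gnl3 at -0.11.

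The lowest count of any of the 32 genes in a tumor was 107. The median standard error of the 32 genes was 0.21 on the log2 scale, beside a median log2 fold change of 0.18.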
